A study of Saccharomyces cerevisiae with 72 samples.

Results

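The comparison concerned DNA replication in strain D, a budding yeast (Saccharomyces cerevisiae, W303 background) carrying a pair of changes, against strain A, which has neither. In strain D the catalytic subunit of PP4, a phosphatase, was fused to an auxin-inducible degron (PPH3-AID), together with the allele sld3-R(2A) tagged with 13myc. Strain A had PPH3 without the degron and SLD3 with that same tag. What both strains share also limits them as models: MATa, the swe1delta deletion, CDC55-AID, osTir1 driven by PGPD1 so that AID fusions are degraded when auxin (IAA) is given, and cse4delta covered by CSE4-HA6 at leu2. Swe1 is an inhibitory kinase of the cyclin-dependent kinase and Cse4 the centromeric histone. Cdc55 is a regulatory subunit of PP2A, another phosphatase, and was a degron fusion in the control too. By the labels' protocols, alpha factor arrested the cells in G1, IAA was added with a change of temperature, and the release was into medium that also held IAA. The members were picked by strain and assay: 11 libraries of D and 11 of A, sampled at 15, 20, 25, 30, 35, 40, 45, 50, 60, 70 and 80 minutes after release, 22 of the 44 tables of replication ratios and of the 72 samples of the series. Each strain and minute had 1 library, so no test between the strains was possible and every difference below is a description of single cultures.

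In budding yeast, replication begins at many short origins at which the MCM helicase is loaded in G1. Sld3 brings Cdc45 to loaded MCM and is itself a substrate of the S-phase cyclin-dependent kinase. Phosphatases such as PP2A and PP4 remove the phosphates that kinases add. Some origins start early and others late, and a place without an active origin is copied by a fork arriving from elsewhere. In a profile of S-phase over G1 DNA, an active origin stands as a peak and the place where forks meet as a valley.

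Each table lists a ratio of S-phase to G1 reads per 1-kb bin, made by the authors and multiplied by a scale factor, so that values run from about 1 for unreplicated to about 2 for replicated DNA. Tables of D and A listed 11305 to 11323 bins, and the 11279 bins listed in all 22 were used. Read counts are not given, so depth is unknown. The noise of a single bin, from differences between neighbours, was 0.0431 to 0.0648 of the library median. In the earliest 10% of bins the median ratio was 0.965 in D and 1.012 in A at 20 minutes, below that of the latest 10% (1.074 in D and 1.18 in A).

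Replication of most of the genome was later in strain D. The median ratio over bins was 1.111 in D and 1.059 in A at 15 minutes, and 1.045 in D and 1.122 in A at 20 minutes. It was 1.155 in D and 1.232 in A at 25 minutes. At 30 minutes it was 1.271 in D and 1.372 in A, and at 35 minutes 1.297 in D and 1.618 in A. It was 1.366 in D and 1.835 in A at 40 minutes, 1.538 and 1.921 at 45 minutes, and 1.748 and 1.958 at 50 minutes. By 70 minutes the medians were close, at 1.997 in D and 2.0 in A, and at 80 minutes they were 1.978 and 1.933. The median of D thus fell from 15 to 20 minutes and was above that of A at 15 and 80 minutes. The gap was thus widest in the middle of the time course, and at 40 minutes 96.8% of bins had a lower ratio in D. After 5-kb averaging, 45.4% of bins in D and 2.62% in A were still below 1.5 at 45 minutes. At 60 minutes 3.35% of bins in D were below that level, against 0% in A.

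Each library was also divided by its own median. At 30 minutes 19.2% of bins differed between D and A by more than 3 times the noise of the difference, and at 50 minutes 10.7% did. At 15 and 80 minutes the share was 0.408% and 0.399%. Such a difference at the same minute does not separate a later start from another order, since the profiles stand at different stages: at 30 minutes the spread over bins was 0.0802 in D and 0.197 in A. To ask which moment of A each profile of D resembled, the A profiles were interpolated between minutes and the nearest was taken. D at 30 minutes was nearest to A at 23.5 minutes, D at 40 to A at 28.5 and D at 50 to A at 38.5. The match at 40 minutes is not firm, since with the 15-minute profile of each strain as denominator it was A at 37.5 minutes. D at 60 minutes was nearest to A at 47 and D at 70 to A at 54. The matches were not close. For D at 45 minutes the root mean square difference from its best match, A at 37 minutes, was 0.1. The profile of D itself then had a standard deviation (SD) of 0.169 over bins. At 30 minutes the difference was 0.0609 against an SD of 0.0663, and at 70 minutes 0.0433 against 0.0449. There the best match was hardly nearer than a level profile, so it places the stage of D poorly. D at 15 minutes, with an SD of 0.0275, was nearest to A at 75 minutes.

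Replication time was read per bin as the minute at which the 5-kb average, made monotone in time, crossed 1.5. It was obtained in both strains for 11264 bins. Its median was 44.1 minutes in D and 32.8 minutes in A, and the delay, D minus A, had quartiles of 7.96 and 14.8 minutes. By the spread between neighbouring bins, the noise of a single-bin delay was 2.51 minutes. For an average of 5 independent bins that would be about 1.12 minutes. Error shared by all bins of a library is not part of either value. The delay exceeded 10 minutes in 58.5% of bins, 15 minutes in 23.8% and 20 minutes in 4.09%, and these shares are the background for the counts below. The size of the delay rests on the authors' scale factors. With each library divided by its median and multiplied by a factor common to both strains at that minute, the library medians are equal at every minute. Equal medians do not force the delays to centre on 0: on that scale the median delay was 4.0 minutes and 80.3% of bins were later in D.

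The chromosomes were not delayed alike. Their median delays averaged 10.7 minutes with an SD of 2.12 over the 16 chromosomes, which describes spread along the genome and not between cultures. Chromosome IV, with the most listed bins, had the largest median delay, 14.5 minutes, with quartiles of 9.38 and 17.7. Its median replication time was 50.2 minutes in D and 35.8 in A. Chromosome XIV followed with 13.9 minutes, at 49.8 minutes in D and 35.3 in A. The smallest median delays were on the short chromosomes VI, 7.48 minutes (40.0 minutes in D and 33.9 in A), and I, 8.16 minutes (43.5 in D and 32.9 in A). The middle 50% of bins on chromosome VI ran from 5.33 to 11.2 minutes and overlapped that of chromosome IV in part. A chromosome's name thus does not fix the delay of a single bin.

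**Figure D1:**
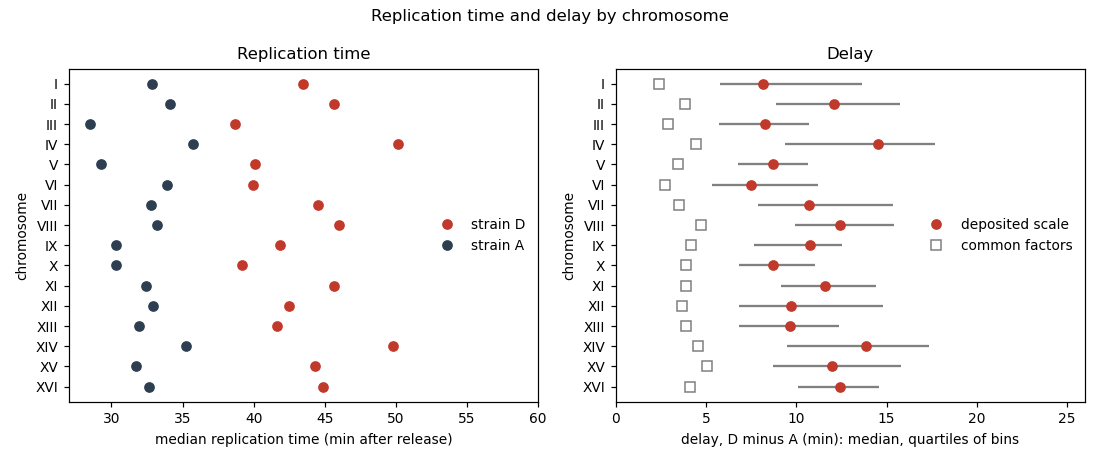
Median replication time per chromosome in strain D and strain A (left, minutes after release) and delay, D minus A (right, minutes). Filled points are medians over bins on the deposited scale, lines join the quartiles, and open squares are medians with common factors. Chromosomes IV and XIV sit farthest right, at 14.5 and 13.9 minutes, and no median with common factors exceeds 5.07.

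Long delays were unevenly spread. Bins delayed by over 15 minutes made up 46.7% of chromosome IV and 43.0% of chromosome XIV. These chromosomes together held 36.5% of all such bins and 19.1% of the bins with a delay. On chromosome III the share was 1.74%, on chromosome X 3.19%, and on chromosome V the longest delay of any bin was 14.7 minutes. Chromosome III, which was earliest in both strains (38.7 minutes in D and 28.5 in A), thus had few strongly delayed bins. Chromosome XII held both the bin of lowest delay, -0.485 minutes, and bins delayed by up to 26.5 minutes. The order of chromosomes belongs to the deposited scale. With common factors chromosome XV came first at 5.07 minutes and VIII second at 4.72, whereas VI (2.75) and I (2.39) remained at the low end.

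For peaks, the minute at which each strain's ratios were most spread was used, 45 minutes for D and 35 minutes for A. Peaks were maxima of the 5-kb average with a prominence over 3 times the bin noise. There were 55 peaks in D and 112 in A. By the narrow rule, a strain A peak counted as kept if D had a peak within 5 kb. That held for 23 of 112 peaks (20.5%), against 5.11% of all bins. The other 89 counted as lost, since the rise in D over flanks 10 to 15 kb away was within 3 times the noise, and 0 fell in the flattened class between. The rule is strict, because the summits of wide domes wander: 67 of the 112 peaks were kept in A itself at 30 minutes, and 19 of the 55 peaks of D were kept in D at 50 minutes. It was therefore set beside a wider measure, chosen after the profiles had been seen.

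The wider measure is the summit-to-valley contrast: the 5-kb value at the strain A summit, in units of the library median, minus the mean of the lowest points on its sides. The positions came from A at 35 minutes. The contrast was then read in D at 45 minutes and in A at 30 minutes, a library that had no part in calling the peaks but has the same G1 denominator. The median contrast of the 112 peaks was 0.151 in D and 0.373 in A. It was lower in D at 111 of 112 peaks, the exception being chrXIV:327001-328000 in RIA1, with 0.42 in D and 0.412 in A. The places were chosen as peaks of A, which favours A in this count. Over all 112 peaks the median ratio of D to A was 0.362, with quartiles of 0.187 and 0.509. A peak was kept if D had at least 50% of the A contrast, lost if the contrast of D was within 3 times its noise (about 0.0963), and flattened between. By these limits 30 peaks (26.8%) were kept, 37 (33.0%) flattened and 45 (40.2%) lost. Of the 89 peaks lost by the narrow rule, 17 were kept by contrast.

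**Figure D2:**
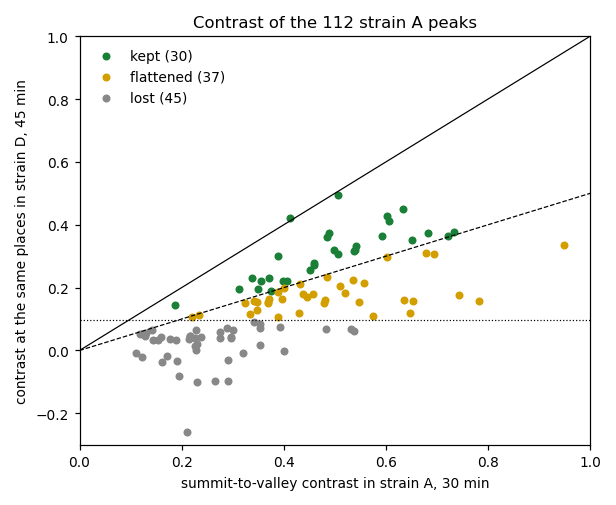
Summit-to-valley contrast of each of the 112 strain A peaks, in units of the library median, in strain A at 30 minutes (horizontal) and at the same places in strain D at 45 minutes (vertical). The solid line marks equal contrast, the dashed line 50% and the dotted line the median limit of 3 times the noise, 0.0963. All but 1 point lie below the solid line, and the 45 lost peaks are grey.

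The classes differed with the height of the summit in A. Of the 28 lowest summits, between 0.93 and 1.06 of the library median in A at 35 minutes, 27 were lost and 1 was kept, at 45 minutes only. The next 28, up to 1.22, had 13 lost, 12 flattened and 3 kept. Among the 28 between 1.22 and 1.33, 1 was lost, 12 were flattened and 15 kept, and among the 28 highest 4 were lost, 13 flattened and 11 kept. Low summits have less contrast to lose: the median contrast of the lowest 28 was 0.0328 in D and 0.19 in A, and that of the highest 28 was 0.284 in D and 0.541 in A. From the lowest to the highest group the median ratio of D to A was 0.168, 0.375, 0.523 and 0.45, so it did not climb throughout. The limit for lost peaks, about 0.0963, was the same at every height, so low summits were called lost more readily. The peak at chrIV:651001-652000 was lost with a ratio of 0.454, while that at chrIV:439001-440000 was flattened with 0.202. The counts by height are thus set in part by the rule.

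The lost summits, a class that takes in low summits more readily, were later in A by their median. Not each of them was late: chrIX:415001-416000 was replicated at 28.2 minutes in D and 23.6 in A. That peak was lost at 45 minutes, with a contrast of 0.09 in D. It was over the limit in D at 40 minutes (0.0969) and at 50 minutes (0.106). Median replication time at lost summits was 50.2 minutes in D and 30.7 in A. At flattened summits it was 38.1 minutes in D and 25.3 in A, and at kept summits 35.4 in D and 25.0 in A. The median delay was 18.8 minutes at lost, 13.0 at flattened and 9.95 at kept summits. With common factors these delays drew together, at 6.49, 5.83 and 5.59 minutes. A delay over 15 minutes was found at 35 of 45 lost, 9 of 37 flattened and 3 of 30 kept summits, against 23.8% of all bins. All bins are a low base here: the median delay was 13.4 minutes over the 112 summits and 11.1 over all bins. Classes and delays come from overlapping libraries, so this is a description of the same profiles from different sides. At 34 of the 45 lost summits the value in D was below the library median, and at 6 it was over 1.1. The class also depends on the minute: of the 45, 11 were over the limit in D at 40 minutes and 4 at 50 minutes.

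**Figure D3:**
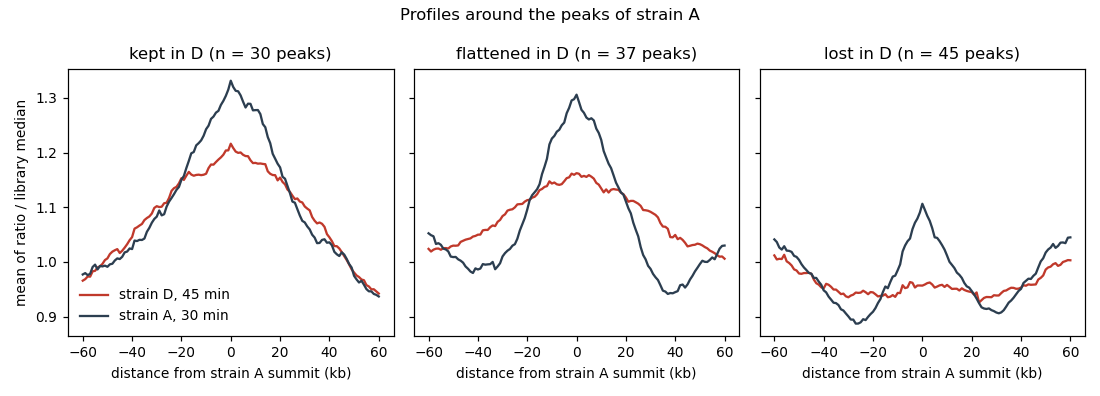
Mean profile, as ratio over library median, within 60 kb of the 112 strain A summits, for strain D at 45 minutes and strain A at 30 minutes, by class of peak. D has a lower summit at the 30 kept peaks and nearly level ground at the 45 lost peaks, whereas A has a summit in each class, lowest at the lost peaks.

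Most peaks of D were places that also rose in A, although 23 of the 55 were over 10 kb from a called peak of A. With the measure turned round, the 55 peaks and valleys of D at 45 minutes were read in A at 30 minutes and in D at 50 minutes. At 53 of the 55, A had at least 50% of the contrast of D, and 2 were within noise in A. Contrasts at strain A peaks were larger in A (median 0.373) than in D (0.151), so 50% of a D contrast is a low bar for A. The count is therefore not comparable with the share of strain A peaks kept in D. For scale, the same 112 strain A peaks were read in the strains with a single change. In strain C (PPH3-AID with tagged SLD3, 35 minutes) 100 were kept, 3 flattened and 9 lost, and in strain B (sld3-R(2A) with PPH3, 40 minutes) 70 were kept, 21 flattened and 21 lost. The median share of the A contrast was 0.362 in D, 0.586 in B and 0.77 in C. Of the 45 peaks lost in D, 36 stood above the limit of D in C and 24 did so in B.

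Losses touched most chromosomes. Chromosome VII had 13 strain A peaks, of which 0 were kept, 7 flattened and 6 lost. Chromosome IV had 15, with 2 kept, 5 flattened and 8 lost. Chromosome XV had 3 kept, 1 flattened and 6 lost of its 10. Of the chromosomes with the smallest share of bins delayed over 15 minutes, III lost 0 of 2 peaks, V 0 of 4 and X 2 of 7. In the same group IX lost 1 of 4 and XIII 4 of 9. Chromosome XVI lost 1 of 8, with 3 kept and 4 flattened.

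The strain A peak of largest prominence among the kept lay at chrXII:371001-372000 (sacCer3), where the summit falls in no annotated gene. Its 5-kb ratio was 1.57 in D and 2.02 in A at 30 minutes, 1.77 in D and 2.34 in A at 35 minutes, and 2.1 in D and 2.17 in A at 45 minutes. D was lower from 20 to 40 minutes and nearer to A afterwards. The contrast was 0.493 in D and 0.506 in A, and replication time was 28.4 minutes in D and 23.2 in A. A second kept peak, at chrX:418001-419000 inside NOP9, which encodes a ribosomal RNA processing factor, had a contrast of 0.373 in D and 0.682 in A and a delay of 5.19 minutes. The third, at chrII:266001-267000, outside annotated genes, had 0.45 in D and 0.634 in A and a delay of 2.3 minutes, the smallest of the kept class.

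The largest peak of all by prominence, at chrIV:439001-440000 outside annotated genes, was flattened. From 15 to 80 minutes its 5-kb ratio in D was 1.13, 1.03, 1.15, 1.28, 1.38, 1.58, 1.8, 2.06, 1.95, 2.02 and 1.99. In A it was 1.1, 1.07, 1.57, 2.11, 2.32, 2.2, 2.29, 2.12, 2.15, 2.21 and 2.05 at the same minutes. D thus lagged through the middle of S phase and was nearer to A from 50 minutes. The contrast was 0.158 in D and 0.782 in A, and replication time was 38.1 minutes in D and 24.2 in A. Flattening did not always come with such a delay. At chrIII:76001-77000, inside AGP1, an amino acid permease gene, the contrast was 0.336 in D and 0.948 in A, while replication time was 27.1 minutes in D and 23.5 in A. At chrXIII:277001-278000, outside annotated genes, the contrast was 0.177 in D and 0.743 in A and the delay was 5.61 minutes.

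Among the lost peaks, the 3 of largest prominence show different courses. At chrVII:879001-880000, outside annotated genes, the contrast was 0.0595 in D and 0.274 in A, yet the place was early in both strains, at 30.7 minutes in D and 24.9 in A. Its ratio in D at 45 minutes, 2.13, was well over the library median of 1.538. D had a small summit there, 1.383 of the library median, against 1.247 at 6 kb to the left and 1.295 at 3 kb to the right. The contrast is read at the valley positions of A, and the ground in D was high to the left. At 19 kb to the left it was 1.319 in D and 1.032 in A. The contrast of this peak was also low in strains B (0.037) and C (0.0225), so its class is not particular to D. At chrXII:607001-608000, inside EST1, a telomerase subunit gene, the contrast was 0.067 in D and 0.532 in A. D had a summit of its own within 5 kb there, so the narrow rule counted the peak as kept, and replication time was 33.6 minutes in D and 24.4 in A. In D at 40 minutes its contrast was 0.23, over the limit. At chrXIII:371001-372000, outside annotated genes, the contrast was 0.0675 in D and 0.482 in A, and in D at 40 minutes it was 0.175, over the limit. Its ratio was 1.34 in D and 1.69 in A at 30 minutes, 1.37 in D and 1.93 in A at 35 minutes and 1.86 in D and 2.04 in A at 50 minutes. Replication there came 15.6 minutes later, at 40.9 minutes in D and 25.3 in A.

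**Figure D4:**
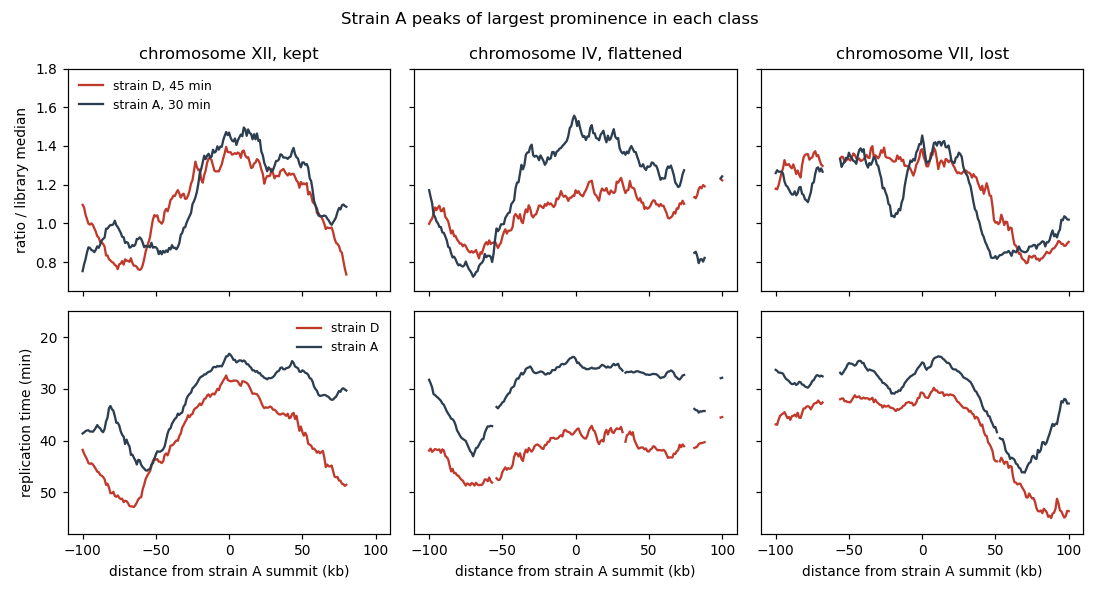
Strain A peaks of largest prominence in the kept, flattened and lost classes, within 100 kb of the summit. The upper row gives the ratio over the library median in strain D at 45 minutes and strain A at 30 minutes, and the lower row replication time in minutes after release, early at the top. Replication at the summit came 5.22 minutes later in D on chromosome XII, 13.8 on chromosome IV and 5.84 on chromosome VII, and gaps are unlisted bins.

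Early regions of D formed fewer domes, and the longest of them were longer than in A. Runs of at least 5 kb above 1.1 of the library median numbered 89 in D at 45 minutes and 116 in A at 30 minutes, and covered 3665 kb in D and 3790 kb in A. Runs of 100 kb or more numbered 8 in D and 4 in A. The longest spanned 230 kb in D, at chrX:492001-722000, and 158 kb in A, at chrV:42001-200000. The median length was 32 kb in D and 28.5 kb in A. In the neighbouring libraries it was 21 kb in D at 50 minutes and 31 kb in A at 35 minutes, so the medians did not order the strains, while the longest runs were 228 kb in D and 158 kb in A.

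Strain A summits were delayed more than strain A valleys, which narrowed the gap between these places. At the 112 strain A summits the median delay was 13.4 minutes, with quartiles of 8.99 and 18.1. At the 127 valleys between and beside them it was 8.59 minutes, with quartiles of 5.6 and 13.1. Median replication time at summits was 40.6 minutes in D and 26.8 in A, and at valleys 48.5 in D and 39.6 in A. The gap from summit to valley was therefore smaller in D. Summits and valleys were picked as extremes of A, which by itself widens the gap in A. Over all bins replication time was spread more widely in D, with an SD of 8.12 minutes in D and 5.57 in A.

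Bins far from a kept peak of their own chromosome were delayed more. Chromosome VII had 0 kept peaks, so its 1027 bins have no such distance and are left out here. Of them, 26.2% were delayed by over 15 minutes. Within 10 kb of the nearest kept peak the median delay was 9.29 minutes, between 21 and 40 kb 9.32, between 41 and 60 kb 10.7, between 61 and 100 kb 12.1 and beyond 100 kb 12.4 minutes. The share delayed by over 15 minutes was 8.7% within 10 kb and 33.4% beyond 100 kb. With common factors the order was another, with medians of 5.02 minutes within 10 kb, 3.35 between 21 and 40 kb and 4.04 beyond 100 kb. The kept class was itself read from D, so distance and delay share libraries.

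Delays over 15 minutes formed 260 stretches of neighbouring bins, 2694 kb in all, with a median length of 4 kb. Single bins made up 64 of them and 72 reached 10 kb or more, and these held 78.1% of the delayed DNA. The 12 stretches of 50 kb or more, on chromosomes II, IV, VII, XII, XIV and XV, held 35.8%. Most stretches were thus short, while most delayed DNA lay in the long ones. At a limit of 10 minutes there were 308 stretches, the longest 293 kb, and at 20 minutes 97, the longest 34 kb. These lengths rest on the 5-kb average and on the deposited factors: with single bins the longest was 39 kb, with the 9-kb average 173 kb, without the libraries of 50 minutes 75 kb in place of 113 kb, and common factors left 24 stretches and 77 kb.

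**Figure D5:**
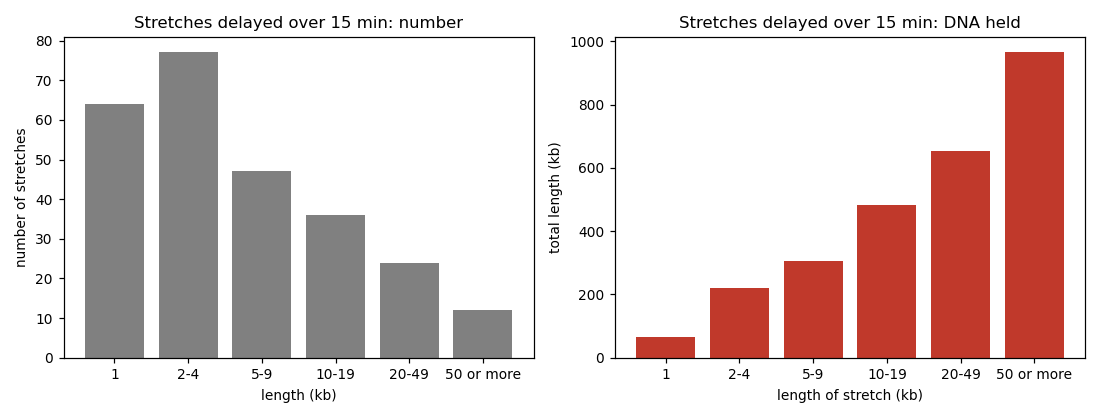
Stretches delayed in strain D by over 15 minutes relative to strain A, by length in kb: their number (left) and the DNA they hold in kb (right). The 12 stretches of 50 kb or more hold 965 kb, and the 64 single bins 64 kb.

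The longest stretch covered 113 kb of chromosome VII, chrVII:32001-145000, with 63 annotated genes and, at its midpoint, CLG1, a cyclin-like gene. From 15 to 80 minutes the median ratio over its bins in D was 1.113, 1.081, 1.164, 1.308, 1.276, 1.272, 1.339, 1.337, 1.532, 1.851 and 1.91. In A it was 1.088, 1.185, 1.242, 1.239, 1.337, 1.572, 1.788, 1.9, 1.955, 1.995 and 1.939. D was level between 30 and 50 minutes while A climbed. The median replication time was 57.9 minutes in D and 38.6 in A, and the delay peaked at 28.8 minutes at chrVII:112001-113000. Of the strain A peaks, 2 lay inside, both lost, and D had 0 peaks there.

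A further 3 of the 6 longest stretches lay on chromosome IV. The stretch chrIV:1337001-1445000, 108 kb with SPP41 at its midpoint, held 1 strain A peak, which was lost. Its median ratio was 1.27 in D and 1.72 in A at 40 minutes and 1.39 in D and 1.92 in A at 50 minutes, and replication time was 53.8 minutes in D and 36.2 in A. The stretch chrIV:732001-824000, 92 kb with SSY1, an amino acid sensor gene, at its midpoint, held 2 strain A peaks, both lost, and was replicated at 59.5 minutes in D and 38.9 in A. The stretch chrIV:1233001-1318000, 85 kb with DIT1, a spore wall gene, at its midpoint, also held 2 lost peaks, and was replicated at 53.8 minutes in D and 36.1 in A.

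On chromosome II, chrII:682001-774000, 92 kb with RIB5, the riboflavin synthase gene, at its midpoint, held 0 strain A peaks and was replicated at 55.8 minutes in D and 36.9 in A. On chromosome XIV, chrXIV:404001-488000, 84 kb with YNL095C at its midpoint, held 1 peak, which is in doubt. Its contrast in D was 0.145 at 45 minutes, which makes it the kept one among the 28 lowest summits, but 0.0291 at 40 and 0.0665 at 50 minutes, both within the limit, and the narrow rule counts it as lost. Its median ratio was 1.24 in D and 1.61 in A at 40 minutes and 1.34 in D and 1.88 in A at 50 minutes. With common factors the median delay of these 6 stretches was 9.63 to 11.9 minutes, against 4.0 over all bins. In all 6 the median ratio of D remained below 1.4 at 50 minutes, when that of A was 1.83 to 1.92. The 6 stretches were chosen for their delay in these same libraries, so both differences follow in part from that choice.

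A slowing shared by all bins of like rank was taken out by setting each bin's replication time in D against the time that D had at the bin's genome-wide rank in A. The residual was over 5 minutes in 13.8% of bins and under -5 minutes in 14.2%. The longest stretches later than their rank were chrXV:756001-791000, 35 kb with MKK1, a MAP kinase kinase gene, at its midpoint (53.7 minutes in D and 32.8 in A), and chrVII:985001-1018000, 33 kb with the enolase gene ENO1 (53.6 in D and 34.9 in A). The longest stretches earlier than their rank were chrXII:304001-351000, 47 kb (42.9 minutes in D and 41.1 in A), and chrVI:224001-270000, 46 kb with RMD8 (44.9 in D and 42.8 in A). By their medians these places were late in A, and their median delays were 4.1 minutes on chromosome XII and 4.52 on chromosome VI. A bin late in A is set against a late time of D, which leaves more room for a negative residual than for a positive one. That these places were late in A thus follows in part from the rule. The stretch on chromosome XII was not uniform. Its first bin was replicated at 52.7 minutes in D and 42.8 in A, and its last at 33.2 in D and 28.4 in A.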

How the data were processed

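The authors deposited 1 table per S-phase library with, per the file headers, a ratio for each 1-kb bin, of S-phase to G1 reads of 1 strain, and a scale factor. The submitters' processing notes name Bowtie2 2.2.6, SAMtools 1.7.2, bedtools 2.26.0 and the build sacCer3. How the factor was set and how bins were filtered is not given in the sources used here. The mean of the ratios was within 0.0047 of the factor in each of the 22 libraries, and factors ran from 1.039 to 2.0.

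All other values were computed with Python 3.11.15, numpy 2.4.6, pandas 2.3.3 and scipy 1.17.1, and the functions were tested on simulated data. Averages needed at least 3 listed bins, and stretches ran across up to 3 kb without a value. Gene names came from RefSeq R64, the assembly behind sacCer3. Its 12 ribosomal RNA genes on chromosome XII span 39 bins, of which 37 were not listed. No annotation of origins and no genome sequence was used here, so the planned values at origins were not computed.

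Loci named are the 3 strain A peaks of largest prominence per class, the 6 longest stretches and the chromosomes of largest and smallest median delay. The residual stretches, the 100-kb runs and the classes by contrast were added after values had been seen. The members, lists and measures were chosen with earlier results of these data known. Strains B and C entered only for scale, and the immunoprecipitation samples were not analysed here.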

Additional observations from a re-analysis of the deposited data

How the results depend on the processing

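With 1 library per strain and minute, a value in minutes counted as moved when it changed by more than the SD of the chromosome medians (2.12 minutes; 0.725 with common factors), a matched minute when it changed by over 2.5, and a count when it changed by over 1.5 times. Of 225 recomputed values 183 did not move, 42 did and 0 changed sign. Of the 225, 112 were medians of the 16 chromosomes, a single result read many times. Among these 16 moved, all of them with common factors. Common factors gave a median delay of 4.0 minutes, a range of chromosome medians of 2.675 minutes, 24 stretches, 77 kb in stretches and a longest stretch of 12 kb. Single bins gave 1047 stretches, the longest 39 kb, and the 9-kb average 158, the longest 173 kb. Leaving out 50 minutes gave a longest stretch of 75 kb. Limits of 10 and 20 minutes gave 6622 and 465 kb, longest stretches of 293 and 34 kb, and 97 stretches at 20 minutes. By the narrow rule, 9 of 71 peaks were kept with a prominence of 5 times the noise and 14 of 80 with both strains at 40 minutes, 54 of 72 were lost with the area over 11 minutes, against 23 kept and 89 lost of 112, and 1 was flattened with that area, with the mean of 3 libraries and with the 15-minute denominator. Among the 79 strain A peaks over 1.1, 14 were lost by contrast. The cause of these moves was not tested. D at 40 minutes was nearest to A at 37.5 minutes with the 15-minute denominator, in place of 28.5. Other alternatives run on the contrast classes gave 23 to 36 kept, 33 to 41 flattened and 39 to 53 lost. The values at annotated origins were not run. No paired analysis was possible because no group has more than 1 library.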
